A study of Mus musculus with 12 samples.

Results

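The basement membrane genes described here are 10 genes in germ cells of the mouse embryo: the collagen IV chains Col4a1 and Col4a2, the laminin chains Lama1, Lamb1 and Lamc1, the nidogens Nid1 and Nid2, the heparan sulfate proteoglycans Hspg2 and Agrn, and the cross-linking enzyme Pxdn. They were taken by gene symbol from a table of 12516 genes, and all 10 were found. The 10 names were chosen from the measured difference between diets in these same embryos, together with partner chains of the same structures. Their fold changes between diets are therefore a description, and no test of them is offered as evidence. Of the 12516 genes, 12432 passed a filter on low values, among them all 10 members.

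RNA was sequenced from Oct4+ germ cells sorted from single female embryos at embryonic day 13.5. The 12 embryos share the genotype Gulo-/- and a C57BL/6 background. Mice without Gulo lack the enzyme for the final step in making vitamin C, so these embryos, controls included, depend on the vitamin in the mother's diet. Of the 12 embryos, 6 came from mothers supplied with vitamin C at physiological levels and 6 from mothers withdrawn from it in the first weeks of gestation, and these groups are called supplied and withdrawn.

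A basement membrane is a thin sheet of matrix on which epithelial and other cells rest. Laminin trimers and a network of collagen IV form its layers, nidogens and the proteoglycan perlecan bridge the layers, and the peroxidase peroxidasin joins collagen IV trimers through sulfilimine bonds. In the fetal gonad, germ cells lie in cords or nests that are bounded by such a sheet. Collagen chains are hydroxylated in the endoplasmic reticulum by enzymes that need vitamin C.

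Values are normalized log2 expression as the authors deposited it, and how deeply each embryo was sequenced is unknown. If the transformation shrinks genes with low values, folds of such genes are understated. Correlations across genes between the 66 pairs of libraries ranged from 0.986 to 0.999, and no pair was identical. All 12 germ cell markers listed had rows that passed the filter, and 11 of them lay above the median gene. The summary level of that list, its mean over genes, ranged from 10.86 to 10.98 in both diets, but its genes differed in opposite directions. Of the 12, 3 (25%) were called lower and 6 (50%) higher in withdrawn embryos, beside 7.75% and 6.22% of all genes tested. Pou5f1, which encodes the Oct4 used for the sort, had a median of 12.52 in supplied and 13.02 in withdrawn embryos, with a log2 difference of 0.45 (SE 0.09, adjusted p = 0.00505). The other 5 called higher were Tfap2c (0.39), Prdm1 (0.26), Dppa3 (0.23), Sall4 (0.23) and Dnd1 (0.23), and the 3 called lower were Mael (-0.77), Dazl (-0.43) and Ddx4 (-0.34).

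Of the 10 members, 6 were called lower in withdrawn embryos by limma at an adjusted p below 0.05, beside a background of 7.75% of all genes tested. One more member, Nid2, was called higher, beside a background of 6.22% of genes. The remaining 3 members, Lamb1, Lamc1 and Nid1, were not called. Values of the diets did not overlap for 5 members that were lower, where the background was 2.34% of genes, and for 1 member that was higher, where it was 2.15%. Because this contrast chose the members, nothing is read from these shares. The median log2 difference of the 10 members was -0.51, and that of all 12432 genes was -0.01. Of the genes called in either direction, 55.5% were lower in withdrawn embryos, and 46.8% when every embryo was centred on its median.

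**Figure D1:**
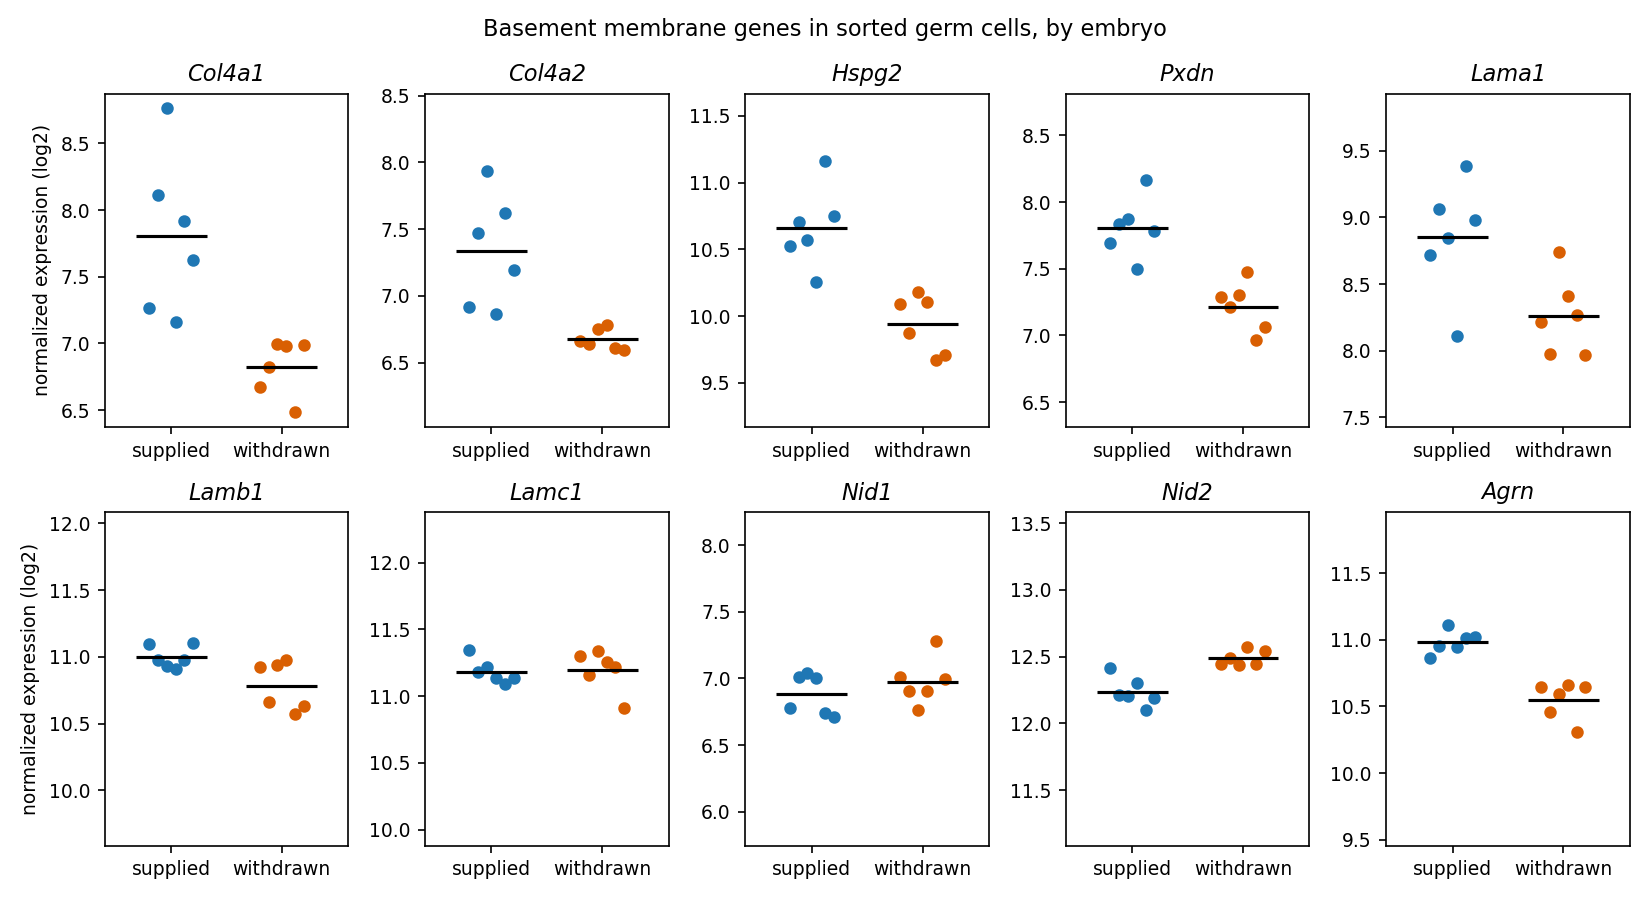
Normalized expression of each member on a log2 scale, 1 point per embryo and a line at each diet's mean, with 6 supplied and 6 withdrawn embryos. The panels share the height of their scale but not its position, and the diets are apart for Col4a1, Col4a2, Hspg2, Pxdn, Agrn and Nid2.

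Col4a1 and Col4a2 encode the chains of the most widespread collagen IV trimer. In supplied embryos Col4a1 had a lowest value of 7.16, a median of 7.77 and a highest value of 8.76, and in withdrawn embryos 6.48, 6.90 and 6.998. Every withdrawn embryo lay below every supplied one, and the supplied embryos were spread far more widely than the withdrawn ones. The log2 difference was -0.98 (SE 0.18), a level 1.98-fold lower, and the largest of the 10 members. Col4a2 ran from 6.86 through a median of 7.34 to 7.94 in supplied embryos and from 6.595 through 6.65 to 6.79 in withdrawn ones. Again no withdrawn embryo reached the lowest supplied embryo, although the gap between them was 0.08. Its log2 difference was -0.66 (SE 0.13), a level 1.58-fold lower. In bulk samples such as these, fewer cells of a type and less RNA per cell cannot be told apart.

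The difference in log2 value between Col4a1 and Col4a2 averaged 0.47 ± 0.22 (SD, n = 6) in supplied and 0.15 ± 0.18 (SD, n = 6) in withdrawn embryos. Its ranges overlapped between the diets, from 0.29 to 0.82 and from -0.13 to 0.40. Within diets the pair had the highest Pearson r of any pair of members, 0.93 over 12 embryos after each gene was centred on its diet mean. In supplied embryos alone the r of this pair was 0.97, and in the more closely spaced withdrawn embryos it was 0.51 (n = 6 each). Such correlations are descriptions, since both values of an embryo share a library and its normalization.

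The pair is transcribed in opposite directions from one start region on mouse chromosome 8, which is why the promoter sequences of both are shown here. In RefSeq on build GRCm38.p6, the windows from 250 bases before to 50 bases after each start share 78 bases, and the gene records overlap by 85 bases. Whether the authors' counting used the strand is not given in the sources used here, so reads from that overlap may not be told apart. The windows of Hspg2 and Pxdn follow, because these genes also varied closely together, with an r of 0.92 over both diets, 0.95 in supplied and 0.89 in withdrawn embryos. Capitals mark each GC box (GGGCGG) and each CCAAT box (CCAAT) on either strand, so that CCGCCC and ATTGG are matches too. No match of one of these motifs overlaps a match of the other in these windows.
Col4a1, minus strand, chr8:11312777-11313076: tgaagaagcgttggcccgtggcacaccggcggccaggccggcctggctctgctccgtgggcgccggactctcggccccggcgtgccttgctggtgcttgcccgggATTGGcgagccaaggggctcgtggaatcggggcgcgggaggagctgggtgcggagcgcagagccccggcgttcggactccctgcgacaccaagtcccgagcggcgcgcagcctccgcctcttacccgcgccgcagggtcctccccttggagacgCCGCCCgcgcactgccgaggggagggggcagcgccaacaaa
Col4a2, plus strand, chr8:11312555-11312854: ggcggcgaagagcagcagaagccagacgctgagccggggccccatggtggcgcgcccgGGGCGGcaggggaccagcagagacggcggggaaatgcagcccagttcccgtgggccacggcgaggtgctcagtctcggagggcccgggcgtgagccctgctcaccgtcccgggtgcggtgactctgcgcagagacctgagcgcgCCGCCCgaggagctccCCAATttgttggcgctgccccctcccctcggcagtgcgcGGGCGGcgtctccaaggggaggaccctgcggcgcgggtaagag
Hspg2, plus strand, chr4:137468553-137468852: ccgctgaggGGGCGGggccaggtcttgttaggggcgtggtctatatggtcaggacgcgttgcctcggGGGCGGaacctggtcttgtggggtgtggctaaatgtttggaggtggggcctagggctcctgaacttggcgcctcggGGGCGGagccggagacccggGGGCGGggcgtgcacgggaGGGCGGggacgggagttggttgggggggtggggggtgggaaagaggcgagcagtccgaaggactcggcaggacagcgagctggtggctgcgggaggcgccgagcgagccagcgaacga
Pxdn, plus strand, chr12:29937786-29938085: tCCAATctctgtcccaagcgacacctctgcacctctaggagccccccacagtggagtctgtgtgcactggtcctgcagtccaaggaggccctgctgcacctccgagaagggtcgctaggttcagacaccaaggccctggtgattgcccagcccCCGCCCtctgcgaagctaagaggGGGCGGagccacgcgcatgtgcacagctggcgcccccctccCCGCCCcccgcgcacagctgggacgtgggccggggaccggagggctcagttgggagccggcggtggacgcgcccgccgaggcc

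These are windows of the reference and not of the authors' build, mm9. The Col4a1 window holds 1 GC box and 1 CCAAT box, and the Col4a2 window 3 and 1. The GC box of Col4a1 lies in the shared bases and is the same site as the last GC box of Col4a2, read on the other strand. Hspg2 has 5 GC boxes and no CCAAT box, while Pxdn has 3 GC boxes and 1 CCAAT box. None of these 4 windows holds the TATA box letters (TATAAA) on either strand. Of 32851 windows of the same length in the table, 35.7% hold a GC box, 37.4% a CCAAT box and 13.6% a TATA box. The 4 windows are rich in G and C, at 74.0% for Col4a1, 73.7% for Col4a2, 70.3% for Hspg2 and 70.0% for Pxdn, where the median window has 52.7%. Windows were found for 7 of the 10 members. These matches are a description of letters and say nothing of which factors bind.

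Pxdn, which encodes peroxidasin, had values of 7.50, 7.81 and 8.16 (lowest, median, highest) in supplied embryos and of 6.96, 7.25 and 7.47 in withdrawn ones. The diets were apart, but by the small margin of 0.03 between the lowest supplied and the highest withdrawn embryo. Its log2 difference was -0.59 (SE 0.10), a level 1.51-fold lower.

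Hspg2 encodes perlecan, a proteoglycan that ties the collagen IV and laminin layers together. Supplied embryos ranged from 10.26 through a median of 10.64 to 11.16, and withdrawn embryos from 9.67 through 9.99 to 10.18. All withdrawn embryos were below all supplied ones. The log2 difference was -0.72 (SE 0.11), or 1.65-fold lower. Hspg2 varied with Pxdn as noted and with the laminin chain Lama1 (r = 0.86), but less with Col4a1 (r = 0.34).

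Agrn encodes agrin, a proteoglycan that binds laminin and dystroglycan. Its values were 10.86, 10.98 and 11.11 in supplied embryos and 10.31, 10.62 and 10.66 in withdrawn ones. The diets were apart by 0.20, the widest gap among the members, and the embryos of each diet lay close together. The log2 difference was -0.43 (SE 0.07), or 1.35-fold lower.

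Lama1 encodes the laminin chain α1, which carries the sites by which laminin binds cells. It ran from 8.11 through 8.91 to 9.39 in supplied embryos and from 7.97 through 8.24 to 8.74 in withdrawn ones. Here the diets overlapped: supplied replicates 1 and 4 lay below the highest withdrawn embryo, replicate 3, and all 6 withdrawn embryos were below the supplied mean. The log2 difference was -0.59 (SE 0.15), or 1.503-fold lower.

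Lamb1 and Lamc1 encode the β1 and γ1 chains that join α1 in the laminin trimer. Lamb1 ran from 10.91 through 10.98 to 11.10 in supplied embryos and from 10.57 through 10.79 to 10.98 in withdrawn ones. Of the withdrawn embryos, 3 lay within the supplied range and 3 below it. The log2 difference of Lamb1 was -0.21 (SE 0.08), and it was not called. Lamc1 had values of 11.09, 11.16 and 11.34 in supplied and of 10.91, 11.24 and 11.34 in withdrawn embryos, which overlapped almost fully. Its log2 difference was 0.01 (SE 0.07), the smallest of the members.

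The 3 laminin chains had log2 differences of -0.59 (Lama1), -0.21 (Lamb1) and 0.01 (Lamc1), and no test compared them. Lama1 minus Lamc1 averaged -2.33 ± 0.46 (SD, n = 6) in supplied and -2.94 ± 0.20 (SD, n = 6) in withdrawn embryos on the log2 scale, without adjustment for length, and the ranges overlapped. Lamb1 minus Lamc1 averaged -0.19 ± 0.09 (SD, n = 6) and -0.41 ± 0.14 (SD, n = 6), and these ranges overlapped as well. Within diets, Lamb1 and Lamc1 varied together with an r of 0.60.

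Nid1 and Nid2 encode nidogens, glycoproteins that link laminin to collagen IV. Nid2 was the one member called higher in withdrawn embryos, with values of 12.10, 12.21 and 12.41 in supplied and 12.43, 12.47 and 12.57 in withdrawn embryos. All withdrawn embryos lay above all supplied ones, by a gap of 0.02. The log2 difference was 0.25 (SE 0.06), or 1.19-fold higher. Nid1 ran from 6.71 through 6.89 to 7.04 in supplied and from 6.76 through 6.95 to 7.28 in withdrawn embryos. The diets overlapped, and the log2 difference of 0.09 (SE 0.08) was not called.

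The sample titles carry numbers from 1 to 4 that occur in both diets, and title numbers 1 and 4 hold 2 embryos of each diet. The labels do not say what the numbers mean. Within every title number, Col4a1, Col4a2, Hspg2, Pxdn and Agrn were lower and Nid2 was higher in the withdrawn embryos. The diets did not overlap for any of these genes, so the same direction within each number follows from that and adds no support. Lama1 was lower within 3 of the 4 numbers and higher by 0.30 within title number 3. Lamb1, Lamc1 and Nid1 were lower in 2 numbers and higher in 2.

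**Figure D2:**
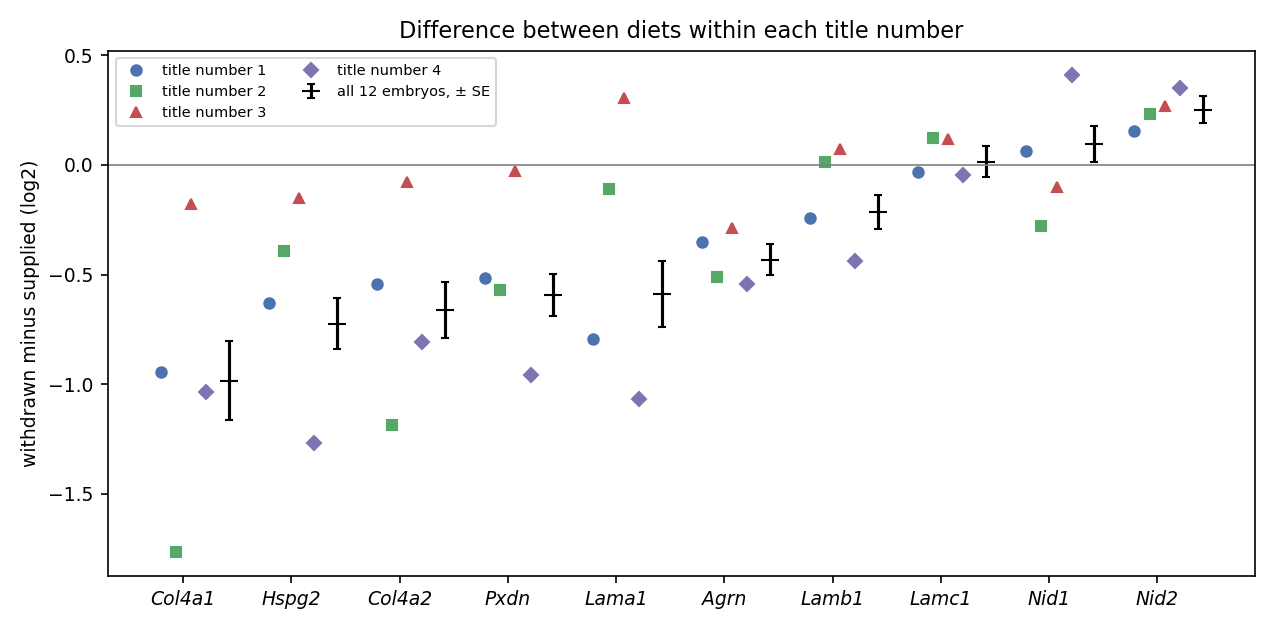
Difference between diets on the log2 scale within each title number (coloured symbols) and over all 12 embryos (black, ± SE), for each member. Title number 3 (red triangles) gives the differences nearest to 0 among the lower values of Col4a1, Hspg2, Col4a2, Pxdn and Agrn, and the only positive one of Lama1.

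Title number 3 gave the smallest differences of the collagens, Hspg2, Pxdn and Agrn. They were -0.18 for Col4a1, -0.08 for Col4a2, -0.15 for Hspg2, -0.03 for Pxdn and -0.29 for Agrn. Its supplied embryo, replicate 4, was the lowest supplied embryo for the collagens, Hspg2, Pxdn, Lama1 and Lamb1, but not for Agrn. On the first principal component of all genes other than the members, with 45.4% of the variance, that embryo lay at 1.52. This is within the range of the withdrawn embryos, from 1.23 to 23.2, whereas the other supplied embryos lay from -18.2 to -6.58. Without it, the log2 differences were -1.11 for Col4a1, -0.76 for Col4a2, -0.80 for Hspg2, -0.65 for Pxdn and -0.74 for Lama1, and 7 members were called lower, Lamb1 being the addition. Without the 4 embryos of title number 4, the members called were Hspg2, Pxdn and Agrn alone, although Col4a1 differed by -0.96. Without those of title number 1, Lama1 was not called, and the other 5 lower members and Nid2 were.

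Correlations between members were taken within diets across the 12 embryos, with the members grouped by their call and not by how they varied. No r of gene pairs outside the members is given beside these values. The 15 pairs among the 6 genes called lower all had a positive r, from 0.21 to 0.93, with a median of 0.55. All 15 were positive in each diet alone as well, with a median of 0.63 in supplied and 0.61 in withdrawn embryos (n = 6 each). The 24 pairs of those 6 genes with the other 4 members had a median r of -0.06 and ranged from -0.62 to 0.58. Lamb1, outside the 6, had an r of 0.58 with Hspg2, 0.53 with Pxdn, 0.47 with Agrn and 0.44 with Lama1. With Col4a1 its r was -0.004 and with Col4a2 -0.002. Over all 45 pairs the median r was 0.16. Nid2 had an r of -0.56 and Nid1 of -0.37 with the mean of the other members, while Pxdn had 0.83 and Col4a2 0.82. Nid2 had a negative r with each of the 6 genes called lower, from -0.61 with Col4a2 to -0.15 with Agrn. This held in supplied embryos alone, from -0.78 to -0.57, but in withdrawn embryos 4 of the 6 values were positive, up to 0.56 with Col4a1.

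**Figure D3:**
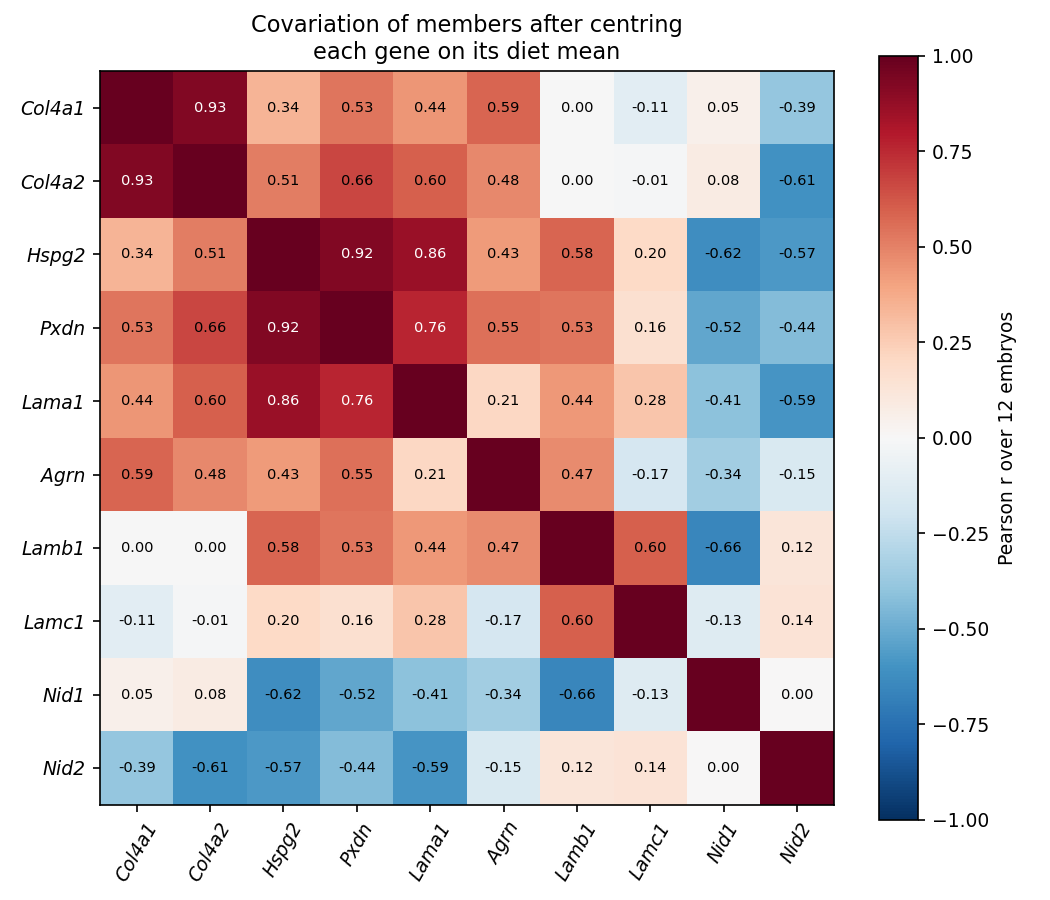
Pearson r between members over 12 embryos, each gene centred on its diet mean, on a colour scale from -1 (blue) to 1 (red). The block at the upper left holds the 6 genes called lower in withdrawn embryos, whose 15 pairs lie from 0.21 to 0.93, and Nid1 and Nid2 are mostly blue against them.

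The 6 genes outside the list with the pattern most like the mean of the members within diets came from 5863 genes at or above the median level. They were Errfi1 (r = 0.89), Plod1 (0.88), Ryr2 (0.87), Wdr90 (0.86), Camk2g (0.84) and Ephb2 (0.83), each over 12 embryos. As the highest of 5863 values, these r are a description, and nothing is read from their size. Plod1 encodes a lysyl hydroxylase that acts on collagen chains. Errfi1, an inhibitor of EGF receptor signalling, was lower in withdrawn embryos by 0.23 (SE 0.07, adjusted p = 0.0249). Ryr2, a calcium release channel, was lower by 0.46 (SE 0.10, adjusted p = 0.00608). The kinase gene Camk2g was lower by 0.27 (SE 0.08, adjusted p = 0.0222) and the ephrin receptor gene Ephb2 by 0.35 (SE 0.10, adjusted p = 0.0264). Plod1 (adjusted p = 0.121) and Wdr90 (adjusted p = 0.443) were not called. Of all genes tested, 7.75% were called lower. Ryr2 was called whichever single embryo was left out. Without supplied replicates 3 or 5 or withdrawn replicate 6, none of Errfi1, Camk2g and Ephb2 was called. Nor was Errfi1 called without supplied replicates 2 or 6, or Ephb2 without supplied replicate 6 or withdrawn replicate 5.

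Levels of different members were compared after the log2 of transcript length in kilobases was subtracted, with lengths from GENCODE annotation. How the log2 values were made is not given. If they were already scaled for length, or shrunk at low levels, the order and the gaps may not hold. In supplied embryos Nid2 stood highest at 9.95 ± 0.11 (SD, n = 6), with no overlap with the next gene. Lamb1 at 8.47, Lamc1 at 8.25 and Agrn at 8.12 followed, and neighbours among these 3 overlapped. Hspg2, at 6.84, was apart from the genes above and below it. The lowest were Lama1 at 5.599, Col4a1 and Pxdn at 5.08, Col4a2 at 4.65 and Nid1 at 4.28, and neighbours in this series overlapped.

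In withdrawn embryos the upper part of the order was much the same per kilobase. Nid2, at 10.20 ± 0.06 (SD, n = 6), was again apart from the rest, and Lamc1 and Lamb1 overlapped at 8.27 and 8.25. Agrn, at 7.69, no longer overlapped with the laminins. Hspg2 lay at 6.11, apart from its neighbours. Below it stood Lama1 at 5.01, Pxdn at 4.49, Nid1 at 4.37, Col4a1 at 4.10 and Col4a2 at 3.98, where each gene overlapped with the next. Lama1 had the lowest level of the 3 laminin chains per kilobase in both diets.

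**Figure D4:**
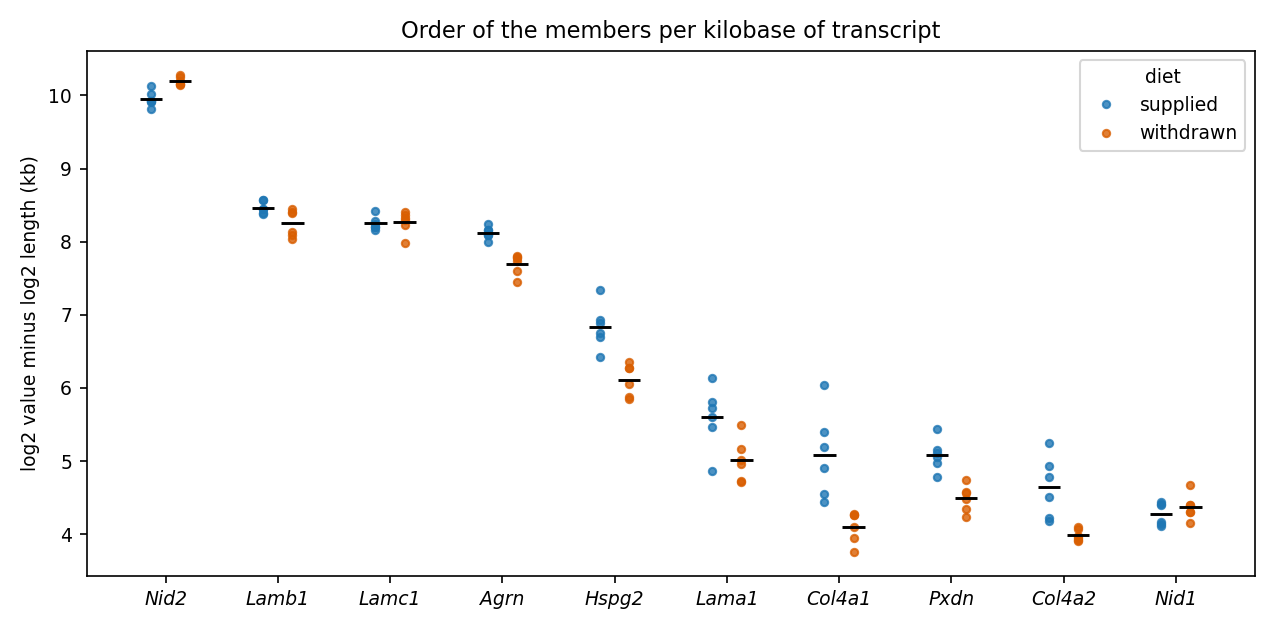
Level of each member as its log2 value minus the log2 of its transcript length in kilobases, 1 point per embryo with a line at the mean of 6, by diet. Nid2 stands apart at the top in both diets, and the collagen IV chains, Pxdn, Lama1 and Nid1 lie lowest.

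Genes related to the members were counted in 7 lists of 166 genes in all. Of these, 118 had a row among the 12516 genes and passed the filter. Only the list of matrix cross-linking and proteolysis, with 24 rows and 23 kept, lost a gene to the filter, and the other missing genes had no row. Of the 118, 17 (14.4%) were lower and 5 (4.24%) were higher in withdrawn embryos, beside 7.75% and 6.22% of all genes tested. The lists were chosen with earlier results of these data known, so nothing is read from these shares or from those by list. By list, the share called lower ran from 28.6% of the receptors to 5.56% of the collagen folding genes and 5.26% of the heparan sulfate genes, which are below that of all genes. When embryos of the same title number and diet were tied by a random effect, 9 of the 118 were lower and 2 higher, and when they were averaged, 5 and 2. With either grouping, no call was left among the genes of collagen folding and heparan sulfate. Among 18 other basement membrane genes, 3 were lower and 2 were higher, with a median difference of -0.03. With the random effect, 2 of these were lower and 0 higher, and with averaging 1 and 0. Hmcn1, which encodes the matrix protein hemicentin 1, ranged from 10.31 to 10.50 with a median of 10.34 in supplied embryos and from 9.16 to 10.02 with a median of 9.81 in withdrawn ones. The diets were apart, and the log2 difference was -0.62 (SE 0.10, adjusted p = 0.0021). Lamb2, a second laminin β chain, was lower by 0.40 (SE 0.10, adjusted p = 0.0114) and Fbln1, which encodes fibulin 1, by 0.29 (SE 0.09, adjusted p = 0.0261). A further 2 were higher: Ntn1, which encodes the laminin-related netrin 1, by 0.29 (SE 0.08, adjusted p = 0.0236), and Sparc, a glycoprotein that binds collagen, by 0.22 (SE 0.06, adjusted p = 0.0204). Hmcn1 and Lamb2 were called whichever single embryo was left out. Without supplied replicate 5, Ntn1, Fbln1 and Sparc were not called, and Ntn1 was also not called without supplied replicate 6 or withdrawn replicates 4 or 6, nor Fbln1 without supplied replicate 6 or withdrawn replicates 2 or 5.

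Of 14 receptors of basement membrane proteins, 4 were lower and 2 were higher, with a median of -0.07. Itga6, the α6 chain of laminin-binding integrins, ran from 8.59 through 8.76 to 8.91 in supplied and from 8.11 through 8.31 to 8.44 in withdrawn embryos. These ranges were apart, and the difference was -0.47 (SE 0.07, adjusted p = 0.00151). The syndecan genes Sdc3 and Sdc2 were lower by 0.50 (SE 0.13, adjusted p = 0.0173) and 0.16 (SE 0.05, adjusted p = 0.0327). Lrp4, which encodes a receptor of agrin, was lower by 0.31 (SE 0.07, adjusted p = 0.00577). Itgav, an integrin chain that pairs to bind matrix ligands such as fibronectin, was higher by 0.35 (SE 0.08, adjusted p = 0.00577), and Itga1, a chain of a collagen IV receptor, by 0.29 (SE 0.09, adjusted p = 0.0302). Itga6, Sdc3, Lrp4 and Itgav were called whichever single embryo was left out. Itga1 was not called without supplied replicates 3, 5 or 6 or withdrawn replicates 2, 3 or 6, and Sdc2 was not without supplied replicates 5 or 6 or withdrawn replicates 1, 3, 4 or 5.

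The 18 kept genes for collagen folding, hydroxylation and export included 1 that was called lower and 0 called higher by limma, with 5 lower and 1 higher at an unadjusted p below 0.05 and 0 by the exact permutation test. Lepre1, now named P3h1, encodes a prolyl 3-hydroxylase and was lower by 0.26 (SE 0.08, adjusted p = 0.0312). That call was lost without supplied replicates 3, 5 or 6 or withdrawn replicates 4 or 5. The lysyl hydroxylase genes Plod2 and Plod1 differed by -0.24 (SE 0.09, adjusted p = 0.0605) and -0.16 (SE 0.07, adjusted p = 0.121) and were not called. Of 19 genes for the synthesis and editing of heparan sulfate, the sugar chain carried by perlecan and agrin, 1 was lower: Ndst1, a sulfotransferase, by 0.32 (SE 0.09, adjusted p = 0.0219). Ndst1 was not called without supplied replicate 5 or withdrawn replicate 6. Of 12 genes that glycosylate dystroglycan, 0 were called by limma. At an unadjusted p below 0.05, 2 of these were lower and 1 was higher, and the exact permutation test called 0. That test can call only genes whose diets do not overlap.

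Matrix cross-linking and proteolysis had 5 lower and 1 higher of 23 genes. Adam19, a membrane protease, was higher by 0.44 (SE 0.08, adjusted p = 0.00233), with values of 11.30 to 11.80 in supplied and of 11.92 to 12.01 in withdrawn embryos, which were apart. The lower genes were the serine protease Htra1, the metalloproteases Adam10, Mmp14 and Adamts9, and the inhibitor Timp3, by between 0.17 and 0.36, and Timp3 was not called without supplied replicate 5 or withdrawn replicate 6, nor Adamts9 without supplied replicate 5 or withdrawn replicates 2 or 5. With the random effect, 3 of the list were lower and 1 higher, and with averaging 1 and 1. Of 14 interstitial matrix genes, 3 were lower: Fbn2 by 0.44 (SE 0.10, adjusted p = 0.00799), Col5a1 by 0.26 (SE 0.08, adjusted p = 0.0322) and Col6a2 by 0.16 (SE 0.05, adjusted p = 0.0388). The median of that list was -0.13, and 0 of its genes were called higher, with 1 at an unadjusted p below 0.05 and 0 by the exact permutation test. Fbn2 was called whichever single embryo was left out. With the random effect 1 of the list was lower, and with averaging 0 were. Col5a1 was not called without supplied replicates 2, 3 or 5 or withdrawn replicates 1, 2, 3 or 6, and Col6a2 was called in 3 such fits, those without supplied replicates 1 or 4 or withdrawn replicate 2.

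**Figure D5:**
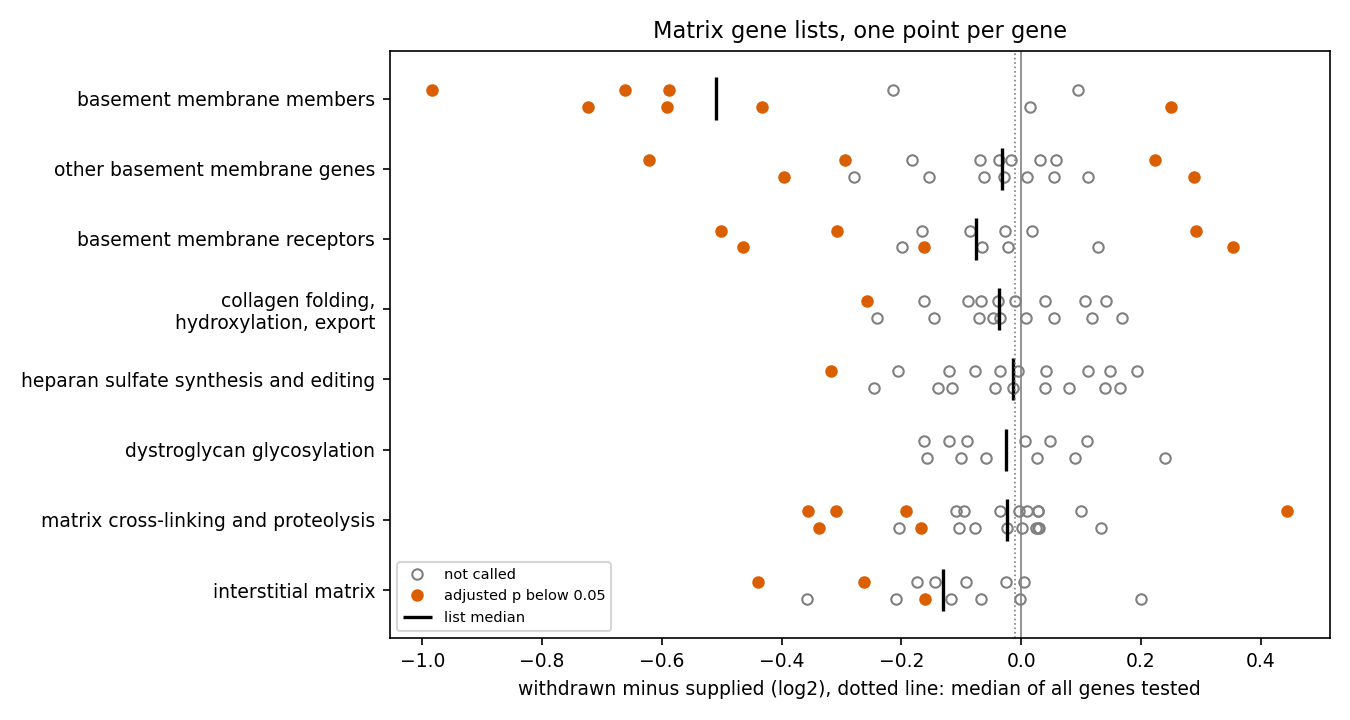
Difference between diets on the log2 scale for each kept gene of the members and of 7 related lists, 1 point per gene, filled where limma called it at an adjusted p below 0.05, with a bar at each list's median. The members' median of -0.51 lies far to the left of the medians of the related lists, which lie from -0.13 to -0.01. The members were chosen from this difference, so nothing is read from that distance.

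Somatic cells of the gonad also make basement membrane, so markers of other cell types were measured beside the members. Of 16 supporting cell markers, 14 had a row among the 12516 genes, and all 14 passed the filter. All 14 were lower in withdrawn embryos by their means, beside 53.4% of all genes tested. Of the 14, 1 (7.14%), Kitl, was called lower, beside 7.75% of all genes. The 14 had a median difference of -0.08, and 0 of them lay above the median gene. Their mean level ranged from 5.08 to 5.31 in supplied and from 5.01 to 5.18 in withdrawn embryos. Of 12 mesenchymal markers, 6 had a row and all 6 passed. All 6 were lower by their means and 0 were called by limma, with 5 at an unadjusted p below 0.05 and 0 by the exact permutation test. The 6 had a median difference of -0.14, and 0 of them lay above the median gene. Their mean level ranged from 4.98 to 5.41 and from 4.96 to 5.10.

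For endothelial markers, 8 of 10 had a row and all 8 passed. Limma called 0 of them, with 1 lower and 1 higher at an unadjusted p below 0.05 and 0 by the exact test. Their mean level ranged from 5.34 to 5.53 in supplied and from 5.39 to 5.47 in withdrawn embryos. For macrophages, 5 of 9 markers had a row, 4 passed and 0 were called, with 1 lower unadjusted and 0 by the exact test. Mesonephric epithelium had a row for 4 of 7 markers, all kept. Of the 4, Emx2 and Gata3 (50%) were called lower, by 0.18 and 0.19, beside 7.75% of all genes tested. Pax8 (0.02) and Lhx1 (-0.04) were not called. Extraembryonic endoderm had a row for 4 of 8, all kept, and 0 were called, with 1 lower unadjusted and 0 by the exact test. Of 9 erythroid markers, 0 had a row. For every list of somatic, endothelial and macrophage markers the means lay well below that of the germ cell markers.

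A score averaged over 20 somatic markers, each centred on its own mean, ran from -0.07 to 0.20 in supplied and from -0.12 to 0.04 in withdrawn embryos. Within diets its r over 12 embryos with the 6 members called lower was 0.62 for Col4a2, 0.58 for Col4a1, 0.45 for Pxdn, 0.39 for Lama1, 0.29 for Hspg2 and 0.20 for Agrn. With the other 4 members it was 0.28 for Nid1, -0.12 for Lamb1, -0.16 for Lamc1 and -0.34 for Nid2. With the score as a covariate, the log2 difference was -0.62 for Col4a1, 62.6% of its value without it, and -0.39 for Col4a2, 59.6% of it. Hspg2 kept 85.0% and Agrn 92.2% of their differences. In that fit limma called 0 members, with 7 lower and 1 higher at an unadjusted p below 0.05, and it called 27 genes lower and 12 higher in all. When the 3 collagen genes in the score were left out, Hspg2, Pxdn and Agrn were called lower. What part somatic cells had in the members' differences was not tested.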

How the data were processed

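RNA sequencing of 12 embryos was used. The authors deposited normalized log2 values for 12516 genes. The submitters' processing notes name build mm9 and, in no stated order, DESeq2 1.10.1, TopHat2 2.0.13, FastQC and Trim Galore 0.4.0. How reads were counted and how the log2 values were made is not given in the sources used here, so no count test was run. Genes with a mean of at least log2 of 10 (3.32) were kept, 12432 in all.

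Diets were compared over all 12 embryos with limma 3.58.1 in R 4.3.3, with a variance trend, two-sided, adjusted by Benjamini-Hochberg over all genes kept and called at 0.05. Differences are the withdrawn minus the supplied mean, and embryos are numbered in accession order. The series calls them biological replicates. If embryos that share a title number are littermates, the p-values are too small. Alternatives changed the filter, scaling, variance model, weights, grouping and covariates, left out embryos, or used an exact two-sided permutation test over 924 arrangements, whose smallest p is 0.00216. After adjustment that p was 0.0482, so the exact test called only genes whose diets did not overlap.

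The members and lists were chosen with earlier results of these data known. Named genes are the members, up to 5 of each related list with the smallest p, called genes of the first 3 related lists, and the 6 genes most like the members. Marker genes named in the text, and Adamts9, were chosen after their values were seen. The model was checked on simulated data. Promoter windows are from RefSeq on GRCm38.p6. Transcript lengths, from GENCODE M21 on GRCm38, were those of the longest coding transcript. Older symbols were matched by synonym. The result for 1 gene is not reported here.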

Additional observations from a re-analysis of the deposited data

Results flagged for a closer look

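Among 50 genes taken from the comparison, the 6 embryos of each diet were searched for one that stood far from the others, which gave 100 groups. In 5 groups 1 embryo did so, where chance flags about 1 in 20 groups, and none of the 5 is among the 10 basement membrane members. Sparc was highest in supplied replicate 3 at 10.15, where the nearest embryo had 10.04. Hmcn1 was highest in supplied replicate 5 at 10.50, with the nearest embryo at 10.38. Withdrawn replicate 5 was the far embryo for 2 genes, Itgav at 9.80 against 9.59 and Sdc3 at 7.70 against 8.44. Large, in withdrawn replicate 3, stood at 7.15 against 6.95.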

How the results depend on the processing

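The fit as reported called 964 genes lower and 773 higher, 6 members lower and 1 higher, and 22 related genes. In order of genes lower, genes higher and related genes called, a random effect for title number and diet gave 491, 395 and 11. Averaging embryos by title number and diet gave 188, 110 and 7, with 5 members lower (without Lama1) and 0 higher. The somatic covariate gave 27, 12 and 1, with 0 members in either direction. The same covariate without collagens, added after the data had been seen, gave 73, 58 and 5, with 3 members lower and 0 higher. The exact permutation test gave 291, 267 and 9, with 5 members lower. It called only genes whose diets did not overlap, so these counts restate that. Without title number 1 the counts were 404, 325 and 9, and without title number 4 they were 40, 9 and 2, with 3 members lower and 0 higher. Leaving out single embryos gave from 443 to 1281 genes lower, from 365 to 1034 higher and from 11 to 35 related genes. The lowest came without supplied replicate 5 and the highest without supplied replicate 4, and without supplied replicate 6 there were 627 lower and 506 higher. In every fit that left out 1 embryo, 6 or 7 members were lower and 1 was higher. Where 7 were, the added gene was Lamb1, as it was with quantile normalization and array weights. With title number as a replicate block, 1089 genes were lower and 973 higher, with 6 members lower and 1 higher, so the block changed no member's call. Deviations of supplied embryos from their diet mean were correlated with those of withdrawn embryos of the same title number. The r was 0.27, -0.10, 0.18 and -0.17 for numbers 1 to 4, so pairing across diets was not shown by these values. They do not bear on likeness of embryos that share both number and diet. For such embryos the random effect had a correlation of 0.27 over all genes kept. What the numbers stand for is not known. Over the 27 alternatives Col4a1 lay between -1.14 and -0.62, Hspg2 between -0.84 and -0.45, Agrn between -0.48 and -0.38 and Nid2 between 0.20 and 0.30. Depth is unknown, so what it limits could not be computed. Of 26 called genes of the related lists and of those most like the members, 12 were called in every fit without 1 embryo and 14 were not in at least 1.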
